A study of Danio rerio with 15 samples.

Results

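Sarcomere genes code for the contractile apparatus of striated muscle. They were followed here in zebrafish (Danio rerio) melanoma, in skin next to a melanoma and in wild-type skin. The members were the probe sets whose only gene symbol in the platform annotation belongs to the myosin heavy chains, myosin light chains, troponins, tropomyosins, myosin-binding proteins C, myozenins, LDB3, titin, skeletal alpha-actinins, tropomodulins and parvalbumins, or is tmem38a. The rule found 56 probe sets of 48 genes, among 15502 probe sets tested and 8793 genes with a probe set of their own. Total RNA had been hybridised to 15 Affymetrix arrays: 6 of melanoma, 6 of mutant skin and 3 of wild-type skin. Melanomas and mutant skin shared the genotype mitf-BRAFV600E;p53-/-, in which the mitf promoter drives mutant BRAF and p53 is mutant. The mutant skin was abnormal skin cut from directly beside a visible tumour, so it is not tumour-free skin from a distant site. Wild-type skin had the genotype Tu and was taken along the flank. All fish were 4 to 8 months old. The labels do not say whether arrays of a group came from separate fish, so the p-values below measure the spread between these samples.

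A sarcomere slides thin actin filaments past thick myosin filaments. Calcium binds troponin C, which moves troponin I, troponin T and tropomyosin off the myosin-binding sites of actin, while alpha-actinin, LDB3 and titin anchor and align the filaments at the Z-disc. Fast and slow fibres use different isoforms of these proteins, and in fish a superficial layer of slow fibres lies over the bulk of fast muscle. Parvalbumins are calcium buffers that are abundant in fast fish muscle. The same families also have non-muscle relatives that serve cell shape, adhesion and division.

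All values are log2 values relative to a reference that the sources used here do not give for any probe set, so differences between groups can be read but the level of a gene, or of one gene against another, cannot. The lowest possible value was a floor at -6.64, the log2 of 0.01. It was reached by 44 member values in 16 probe sets, all in melanoma: 16 probe sets in melanoma 1, 7 in melanoma 2, 8 in melanoma 3, 1 in melanoma 4 and 12 in melanoma 5. Floor values can make the estimated fall of such a probe set too small, and the estimate still carries its SE.

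The melanocyte list (5 of 14 listed genes measured) averaged 1.83 to 2.55 in melanoma 1 to 5, against -2.76 to -1.03 in mutant skin and -2.66 to -2.53 in wild-type skin. The array labelled melanoma 6 stood apart at -0.39. Arrays were also correlated over all probe sets, using deviations from each probe set's mean over all arrays. Such centring lowers correlations, so a negative value does not mean that the uncentred profiles were opposed. The deviations of melanoma 6 correlated at -0.45 to -0.35 with those of the other melanomas. They correlated at 0.85 with mutant skin 6, 0.71 with mutant skin 2 and 0.61 with wild-type skin 1. With the remaining skin arrays the values were -0.58 to 0.13, as a description of these arrays. Oocyte transcripts were high in melanoma 6, in mutant skin 1, 2, 4 and 6, and in wild-type skin 1 and 2, at mean levels of 2.51 to 6.48, against -0.98 to 0.35 in the other 8 arrays. Counts are therefore also given without melanoma 6 and without these 7 arrays, a split that leaves 5 melanomas, 2 mutant skin arrays and 1 wild-type array.

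The comparison of melanoma with mutant skin asked how tumours differ from the neighbouring skin of the same line. Sarcomere genes of skeletal muscle were much lower in melanoma, and those of the heart and of non-muscle cells mostly did not pass the test. Of the 56 member probe sets 30 fell, 2 rose and 24 did not pass (limma, two-sided, Benjamini-Hochberg adjusted p under 0.05 over all 15502 probe sets). Over all probe sets, 4.35% fell and 6.44% rose in this comparison. The median log2 change of the members was -3.39, against 0.00 for all probe sets, and single members ranged from -7.28 to 1.84. Among the 20 most lowered probe sets of the whole array, 11 were members, and among the 50 most lowered 21 were. In bulk tissue, fewer muscle cells and less of these RNAs per muscle cell cannot be told apart.

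Leaving out melanoma 6 gave 32 falls and 2 rises, with 7.08% and 12.9% over all probe sets, and the 30 falls were among the 32. Without the 7 arrays rich in oocyte RNA there were also 32 falls and 2 rises, with 9.79% and 9.26% over all probe sets, and 29 of the 30 falls were kept. All 6 melanomas lay below all 6 mutant skin arrays in 7 members, against 0.961% of all probe sets: tpm1, smyhc1, myl13, myl10, mybpc3, pvalb7 and myh9a, which is not among the 30. With melanoma 1 to 5 alone, 29 of the 56 members lay below every mutant skin array, against 4.23% of all probe sets. Only 2 members, actn2b and myl6, lay above every mutant skin array, against 8.0% of all probe sets.

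**Figure D1:**
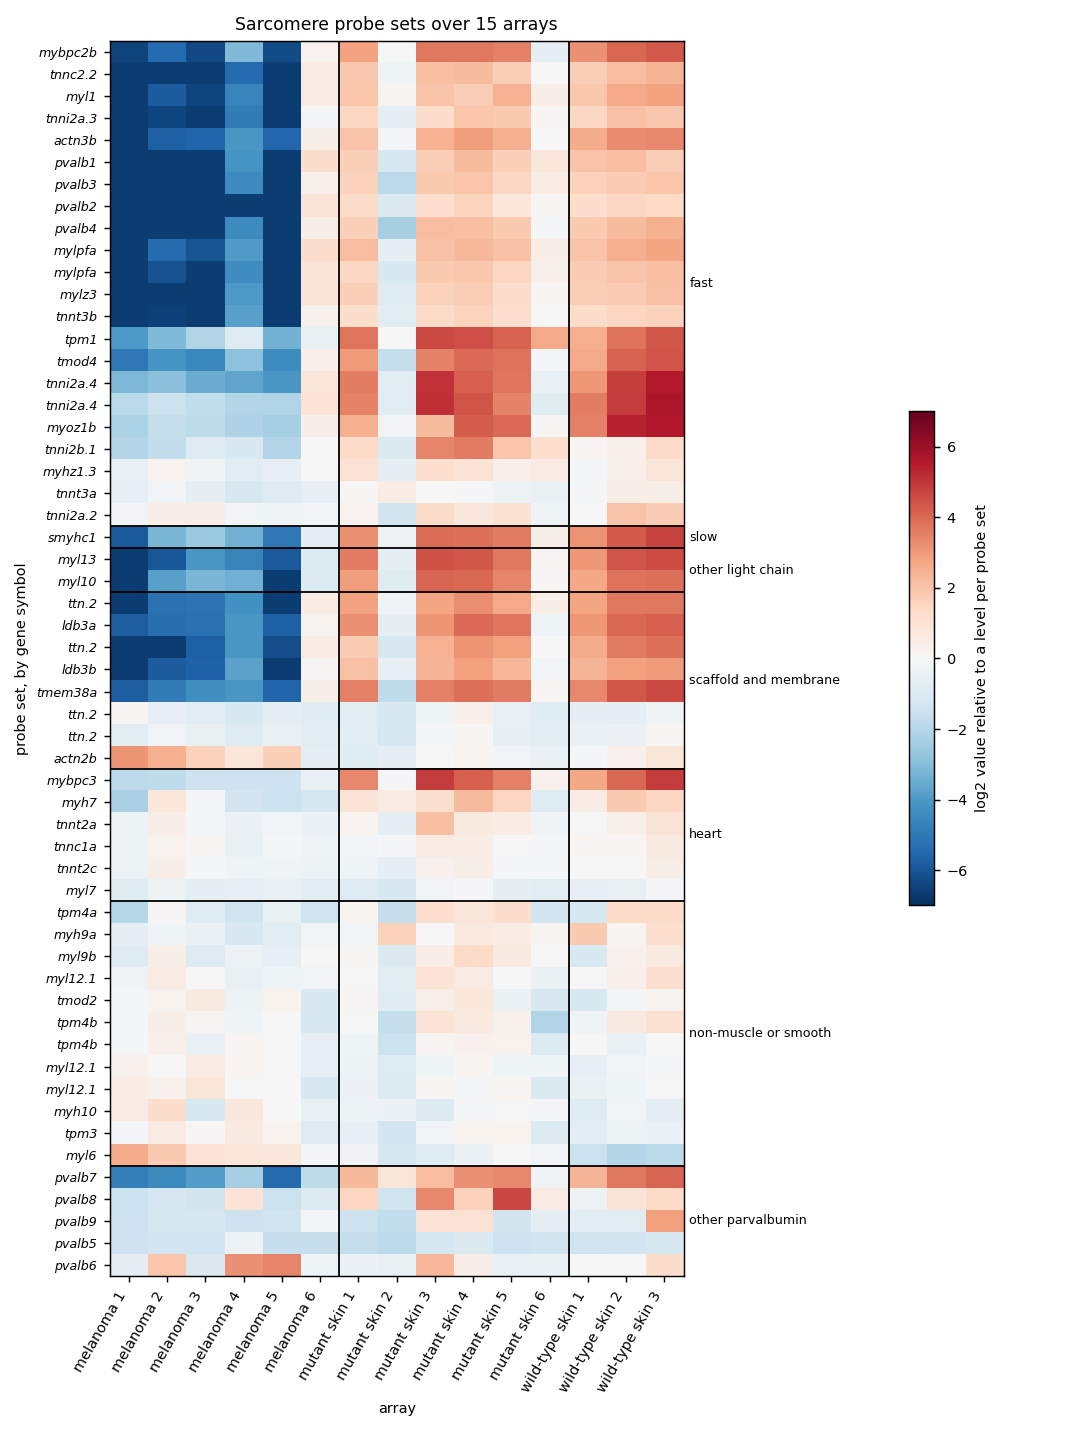
Log2 values of the 56 sarcomere probe sets (rows, grouped by role) in 6 melanoma, 6 mutant skin and 3 wild-type skin arrays (columns), blue below and red above the level each probe set is relative to. Most fast, slow, light-chain and scaffold rows are dark blue in melanoma 1 to 5, while melanoma 6 and mutant skin 2 and 6 are pale in these rows.

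The fast-fibre genes moved together. Of 22 fast probe sets 19 fell and 0 rose in melanoma against mutant skin, against 4.35% and 6.44% of all probe sets. Their median log2 change was -5.88. The most lowered of these 22 was mybpc2b, the fast myosin-binding protein C that braces the thick filament. Its values were -6.49 (lowest), -5.84 (median) and 0.23 (highest) in melanoma, against -0.70, 3.18 and 3.68 in mutant skin, and 3.22, 4.02 and 4.30 in wild-type skin. The high melanoma value came from melanoma 6 and the low mutant skin values from arrays 2 and 6, and the groups overlapped only through these arrays. The log2 change was -6.72 ± 1.13 (SE), or 106-fold lower (adjusted p = 0.00337).

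The thin-filament switch showed the same pattern. Fast troponin C, tnnc2.2, the calcium sensor, lay at the floor in 4 melanomas, at -5.45 in melanoma 4 and at 0.56 in melanoma 6, against -0.30 (lowest), 1.82 (median) and 2.23 (highest) in mutant skin and 1.74, 2.17 and 2.36 in wild-type skin. Its log2 change was -6.51 ± 1.06 (adjusted p = 0.00297), an estimated fall of 91.1-fold that the floor values may make too small. Fast troponin I, tnni2a.3, the inhibitory subunit, lay between -6.64 and -4.89 in melanoma 1 to 5 and at -0.11 in melanoma 6, against -0.68, 1.34 and 1.95 in mutant skin and 1.48, 1.89 and 2.03 in wild-type skin. All mutant skin arrays other than array 2 lay above every melanoma for this gene, and the log2 change was -6.21 ± 0.96 (adjusted p = 0.00279).

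Thick-filament light chains fell as well. The fast essential light chain myl1 had -6.64 (lowest), -6.13 (median) and 0.59 (highest) in melanoma, against 0.21, 1.85 and 2.42 in mutant skin and 1.89, 2.64 and 2.80 in wild-type skin. Its log2 change was -6.40 ± 1.01 (adjusted p = 0.00281). Both probe sets of the fast regulatory light chain mylpfa fell, with nearly the same log2 change (-5.96 and -5.89). The light chain mylz3 and the fast troponin T gene tnnt3b, whose product ties troponin to tropomyosin, had log2 changes of -5.87 and -5.75.

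The fast parvalbumins pvalb1 to pvalb4 were at the floor in most melanomas. The values of pvalb2 were at the floor in melanoma 1 to 5 and 0.88 in melanoma 6, against -1.04 (lowest), 0.97 (median) and 1.54 (highest) in mutant skin and 1.24, 1.40 and 1.42 in wild-type skin. The log2 changes of the 4 genes lay between -6.09 (pvalb1) and -6.00 (pvalb4), each with 4 or 5 melanomas at the floor. The floor values can thus make the estimated falls of these genes too small. In the assembly GRCz12tu, pvalb4 and pvalb1 are direct neighbours, and so are pvalb3 and pvalb2.

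Further fast genes fell without reaching the floor in most melanomas. Alpha-actinin 3 (actn3b), the cross-linker of fast Z-discs, had a log2 change of -6.15 ± 0.98 (adjusted p = 0.00287). Tropomyosin 1 (tpm1), which covers the myosin-binding sites of actin, had -4.02 (lowest), -2.59 (median) and -0.52 (highest) in melanoma, against 0.01, 3.93 and 4.60 in mutant skin and 2.56, 3.80 and 4.37 in wild-type skin. It was the 1 member of the 22 fast probe sets with no overlap between melanoma and mutant skin (log2 change -5.60 ± 0.79, adjusted p = 0.00164). The pointed-end cap tmod4 fell by 5.52 on the log2 scale, and myoz1b, a Z-disc protein that binds calcineurin, fell by 3.75.

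Not every gene on the fast list passed the test. The fast myosin heavy chain myhz1.3 had a log2 change of -0.86 (95% interval -1.54 to -0.17, adjusted p = 0.105), and tnnt3a one of -0.61 (-1.09 to -0.12, adjusted p = 0.105). The troponin I gene tnni2a.2 had -0.27 (-1.23 to 0.69, adjusted p = 0.796), although the gene lies directly beside tnni2a.3. The melanoma medians of these 3 probe sets were -0.39, -0.60 and -0.18 and their mutant skin medians 0.77, -0.04 and 0.49. A further probe set that may read 6 fast myosin heavy chain genes at once, and is not a member because it has several symbols, had a log2 change of -6.35 ± 1.19 with 4 melanomas at the floor. The probe sets for fast myosin heavy chains thus differed.

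**Figure D2:**
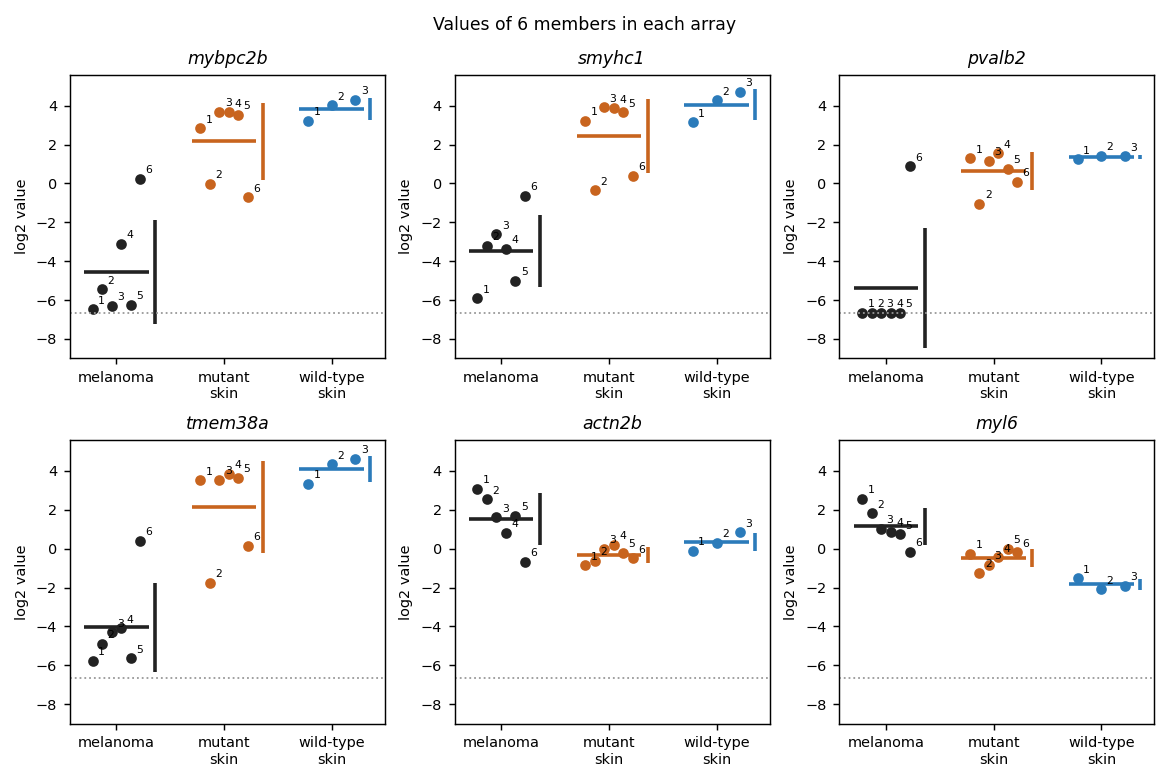
Log2 values of 6 members in each array (points with array numbers), with the group mean (horizontal line) and SD (vertical bar) for melanoma (n = 6), mutant skin (n = 6) and wild-type skin (n = 3), and the floor at -6.64 (dotted). For mybpc2b, smyhc1, pvalb2 and tmem38a melanoma 1 to 5 lie below every skin array, while actn2b and myl6 are higher in melanoma 1 to 5 than in every mutant skin array. Of all probe sets, 8.0% are higher in melanoma 1 to 5 than in every mutant skin array.

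Of the genes on the slow list only smyhc1, the slow myosin heavy chain, had a probe set of its own. Other slow-fibre genes on the list, such as tnnc1b, tnnt1 and mybpc1, had no probe set with only their symbol, so slow and fast partners could not be compared pair by pair. The values of smyhc1 were -5.90 (lowest), -3.29 (median) and -0.64 (highest) in melanoma, against -0.36, 3.44 and 3.92 in mutant skin and 3.15, 4.29 and 4.72 in wild-type skin. All 6 melanomas lay below every skin array, mutant skin 2 being the nearest. The log2 change against mutant skin was -5.90 ± 0.92, or 59.8-fold lower (adjusted p = 0.00281), within the range of the fast genes.

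Within an array, smyhc1 was set against the median of the 19 lowered fast probe sets, as a description with no test. These 19 were chosen by their fall in melanoma in these same arrays, which favours a larger difference there. Each probe set has its own reference, so the difference does not give the level of smyhc1 against the fast genes. The difference (log2) was between 0.65 and 3.85 in melanoma 1 to 5 and -1.07 in melanoma 6, and it was 1.32, 0.39, 1.84, 1.63, 1.71 and 0.29 in mutant skin 1 to 6. The wild-type skin arrays had 1.26, 2.08 and 2.26. The ranges of the 3 groups overlapped. Where the fast median lies at the floor, the difference is a lower bound.

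Both remaining muscle light chains, myl13 and myl10, fell. Their fibre type is not settled by the sources used here. The gene myl13 was on the fast list and was set apart after values were seen, so it is not among the fast probe sets above. The probe set of myl13 had the largest fall of all members. Its values were -6.64 (lowest), -5.28 (median) and -0.93 (highest) in melanoma, against -0.69, 3.64 and 4.48 in mutant skin and 3.06, 4.41 and 4.57 in wild-type skin. The log2 change was -7.28 ± 1.06, or 156-fold lower (adjusted p = 0.00194), an estimate that floor values may make too small. The values of myl10 were -6.64, -3.58 and -0.94 in melanoma, against -0.85, 3.17 and 4.05 in mutant skin and 2.71, 3.79 and 3.88 in wild-type skin, with a log2 change of -6.37 ± 1.05 (adjusted p = 0.00331). Neither gene overlapped between melanoma and mutant skin, even with melanoma 6 included.

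Of the 8 scaffold and membrane probe sets 5 fell and 1 rose (median log2 change -6.20), against 4.35% and 6.44% of all probe sets. The Z-disc protein genes ldb3a and ldb3b had log2 changes of -6.46 ± 1.07 (adjusted p = 0.00331) and -6.21 ± 1.03 (adjusted p = 0.00332). The values of ldb3a were -5.78 (lowest), -5.24 (median) and 0.25 (highest) in melanoma, against -0.68, 3.14 and 3.94 in mutant skin and 3.04, 4.02 and 4.19 in wild-type skin. Those of ldb3b were -6.64, -5.76 and 0.17 in melanoma, against -0.58, 2.21 and 2.87 in mutant skin and 2.37, 2.89 and 3.00 in wild-type skin. In both genes melanoma 6 was the high tumour. The channel gene tmem38a, whose product balances the charge when the sarcoplasmic reticulum releases calcium, had -5.76, -4.58 and 0.40 in melanoma, against -1.75, 3.54 and 3.85 in mutant skin and 3.35, 4.34 and 4.63 in wild-type skin (log2 change -6.20 ± 1.13, adjusted p = 0.00441).

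Titin, the spring that spans the sarcomere from Z-disc to M-line, gave differing readings from its 4 probe sets. Of the ttn.2 probe sets, 1 had -6.63 (lowest), -5.19 (median) and 0.53 (highest) in melanoma, against -0.30, 2.69 and 3.28 in mutant skin and 2.74, 3.67 and 3.71 in wild-type skin (log2 change -6.49 ± 1.04, adjusted p = 0.00287). Another had a log2 change of -6.29 ± 1.12 (adjusted p = 0.00405). The other two had changes of -0.10 (95% interval -0.68 to 0.49) and -0.06 (-0.57 to 0.45), and their values stayed between -1.13 and 0.36 in all 15 arrays. Which of them reads a transcript present in these tissues was not tested.

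**Figure D3:**
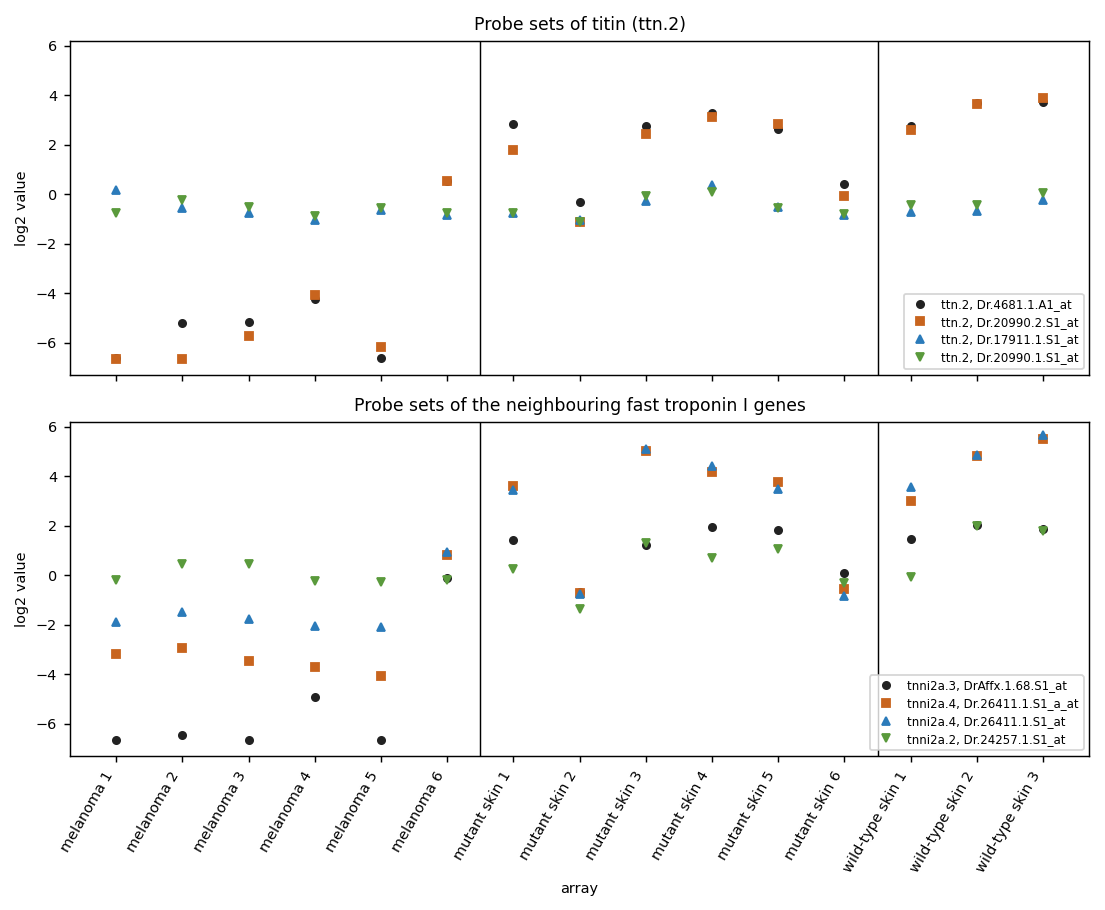
Log2 values in each array for the 4 probe sets of titin (ttn.2, above) and for 4 probe sets of the neighbouring fast troponin I genes tnni2a.3, tnni2a.4 and tnni2a.2 (below). A pair of titin probe sets drops to between -6.64 and -4.07 in melanoma 1 to 5 while the other pair stays between -1.13 and 0.36 in every array, and tnni2a.2 stays between -0.28 and 0.46 in the melanomas.

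The exception among the Z-disc genes was actn2b, an alpha-actinin 2 gene, which rose. Its values were 3.10, 2.54, 1.62, 0.82, 1.69 and -0.67 in melanoma 1 to 6. In mutant skin 1 to 6 they were -0.85, -0.62, -0.01, 0.22, -0.20 and -0.49, and in the wild-type skin arrays they were -0.11, 0.30 and 0.84. Melanoma 1 to 5 lay above every mutant skin array, as in 8.0% of all probe sets, and melanoma 6 lay among the mutant skin arrays. The log2 change was 1.84 ± 0.50, or 3.58-fold higher (adjusted p = 0.0308). Over 25 other settings the adjusted p ranged from 0.000826 to 0.0749, and the call was lost in 7 of them, and the rise lies near the threshold.

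Heart genes gave a divided picture. Of 6 heart probe sets 2 fell and 0 rose, against 4.35% and 6.44% of all probe sets, and the median log2 change was -0.44. The larger fall was in mybpc3, cardiac myosin-binding protein C. Its values were -1.84, -1.76, -1.46, -1.47, -1.42 and -0.53 in melanoma 1 to 6, against 3.38, -0.06, 4.91, 4.21, 3.53 and 0.31 in mutant skin 1 to 6 and 2.73, 4.00 and 4.89 in wild-type skin. The 6 melanomas lay below every skin array and had far less spread than mutant skin (SD 0.47 against 2.08). The log2 change was -4.12 ± 0.77, or 17.4-fold lower (adjusted p = 0.0048). Mutant skin 2 and 6 were low for mybpc3 as they were for the slow gene smyhc1 (-0.36 and 0.39, against 3.22 to 3.92 in the other mutant skin arrays). Whether the mybpc3 signal came from heart or skeletal muscle was not tested.

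The other called heart gene was myh7, a beta-type myosin heavy chain that mammals use in heart and slow skeletal fibres. It had -2.27 (lowest), -1.24 (median) and 0.79 (highest) in melanoma, against -0.88, 1.03 and 2.19 in mutant skin and 0.49, 1.43 and 1.82 in wild-type skin. The groups overlapped, the log2 change was -1.84 ± 0.55 (adjusted p = 0.0439), and the call was lost in 11 of 25 other settings, with adjusted p up to 0.101. The other heart genes gave small values. Cardiac troponin T (tnnt2a) had a log2 change of -0.61 (95% interval -1.42 to 0.21) and cardiac troponin C (tnnc1a) one of -0.27 (-0.74 to 0.20). For myl7, a regulatory light chain of the heart, the change was 0.01 (-0.46 to 0.47), with -0.85, -0.62 and -0.33 in melanoma, against -1.06, -0.75 and -0.11 in mutant skin and -0.59, -0.51 and -0.09 in wild-type skin. Of a separate list of heart markers, none of 7 probe sets passed the test in limma, 2 of them members (0 at an unadjusted p under 0.05).

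Members with non-muscle or smooth-muscle roles mostly did not pass the test. Of 12 probe sets 0 fell and 1 rose (8.33%), and the median log2 change was 0.19 (2 had an unadjusted p under 0.05). Of all probe sets 4.35% fell and 6.44% rose, so these counts do not set the list apart. The gene that rose was myl6, the essential light chain of non-muscle and smooth-muscle myosin. Its values were 2.58, 1.82, 1.02, 0.86, 0.75 and -0.15 in melanoma 1 to 6, against -0.26, -1.23, -0.83, -0.45, 0.01 and -0.19 in mutant skin 1 to 6. In the wild-type skin arrays they were -1.51, -2.07 and -1.91. Melanoma 1 to 5 lay above every skin array, and melanoma 6 lay among the mutant skin arrays. The log2 change against mutant skin was 1.64 ± 0.39, or 3.11-fold higher (adjusted p = 0.0161), and this call held in all 25 other settings.

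The other non-muscle members did not pass the test against mutant skin. Non-muscle myosin heavy chain myh10 had -1.05 (lowest), 0.28 (median) and 1.24 (highest) in melanoma, against -0.94, -0.24 and 0.00 in mutant skin and -0.88, -0.67 and -0.21 in wild-type skin (log2 change 0.48, 95% interval -0.28 to 1.23). Its relative myh9a had -1.08, -0.55 and -0.20 in melanoma, against -0.20, 0.35 and 1.62 in mutant skin and 0.12, 1.19 and 1.85 in wild-type skin. The melanoma arrays of myh9a lay just below mutant skin without overlap, but the adjusted p was 0.0664 (log2 change -1.04 ± 0.34). Without melanoma 6 it was 0.0438.

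The tropomyosins and the remaining light chains on the non-muscle or smooth-muscle list did not pass the test. Tropomyosin tpm3 had -0.90 (lowest), 0.17 (median) and 0.62 (highest) in melanoma, against -1.34, -0.37 and 0.27 in mutant skin and -0.76, -0.39 and -0.37 in wild-type skin (log2 change 0.52, 95% interval -0.18 to 1.23). The 2 probe sets of tpm4b had changes of 0.15 and 0.24, while tpm4a had -1.11 (-2.40 to 0.18). Without the 7 arrays rich in oocyte RNA, tpm4a had -2.15 (adjusted p = 0.0206), and it passed in 3 of 25 other settings. The regulatory light chain myl12.1 had changes of -0.18, 0.41 and 0.46 from its 3 probe sets, with melanoma medians of -0.22, 0.09 and 0.18 and mutant skin medians of 0.02, -0.31 and -0.24. The pointed-end cap tmod2 had a change of 0.13 (-0.66 to 0.92), with -1.06, 0.05 and 0.63 in melanoma, against -1.09, -0.17 and 0.72 in mutant skin and -1.05, -0.15 and 0.19 in wild-type skin. For myl9b the change was -0.65 (-1.50 to 0.20). The groups of these genes overlapped in every case.

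The remaining parvalbumins did not share 1 pattern. Of 5 probe sets 1 fell and 0 rose, against 4.35% and 6.44% of all probe sets. The gene that fell was pvalb7, with -5.44 (lowest), -4.17 (median) and -1.78 (highest) in melanoma, against -0.23, 2.22 and 3.36 in mutant skin and 2.36, 3.68 and 4.08 in wild-type skin. It had the smallest adjusted p of all members (log2 change -5.71 ± 0.72, adjusted p = 0.00137), and the groups did not overlap. The values of pvalb8 were -1.52, -1.25 and 0.97 in melanoma, against -1.41, 1.57 and 4.65 in mutant skin and -0.35, 0.89 and 1.33 in wild-type skin (log2 change -2.64 ± 0.82, adjusted p = 0.0523). It passed in 11 of 25 other settings, among them those without melanoma 6 (adjusted p = 0.0494) and without the 7 arrays rich in oocyte RNA (log2 change -4.93, adjusted p = 0.00218), so that 2 of the 5 fell there. Its direct neighbour pvalb4 was lowered to the floor in 4 melanomas.

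The parvalbumin pvalb6 was uneven among the tumours. It had -0.66, 1.95, -1.03, 3.20, 3.41 and -0.32 in melanoma 1 to 6, against -0.43, -0.54, 2.33, 0.42, -0.44 and -0.45 in mutant skin 1 to 6 and 0.03, -0.04 and 1.21 in wild-type skin. Melanoma 2, 4 and 5 were high, and the other 3 melanomas lay between -1.03 and -0.32. The log2 change was 0.94 ± 0.80 (adjusted p = 0.526). For pvalb5 the change was 0.14 (95% interval -0.37 to 0.66), with -1.60, -1.43 and -0.36 in melanoma, against -1.83, -1.43 and -0.99 in mutant skin and -1.39, -1.33 and -1.12 in wild-type skin. For pvalb9 it was -0.59 (-1.98 to 0.80).

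**Figure D4:**
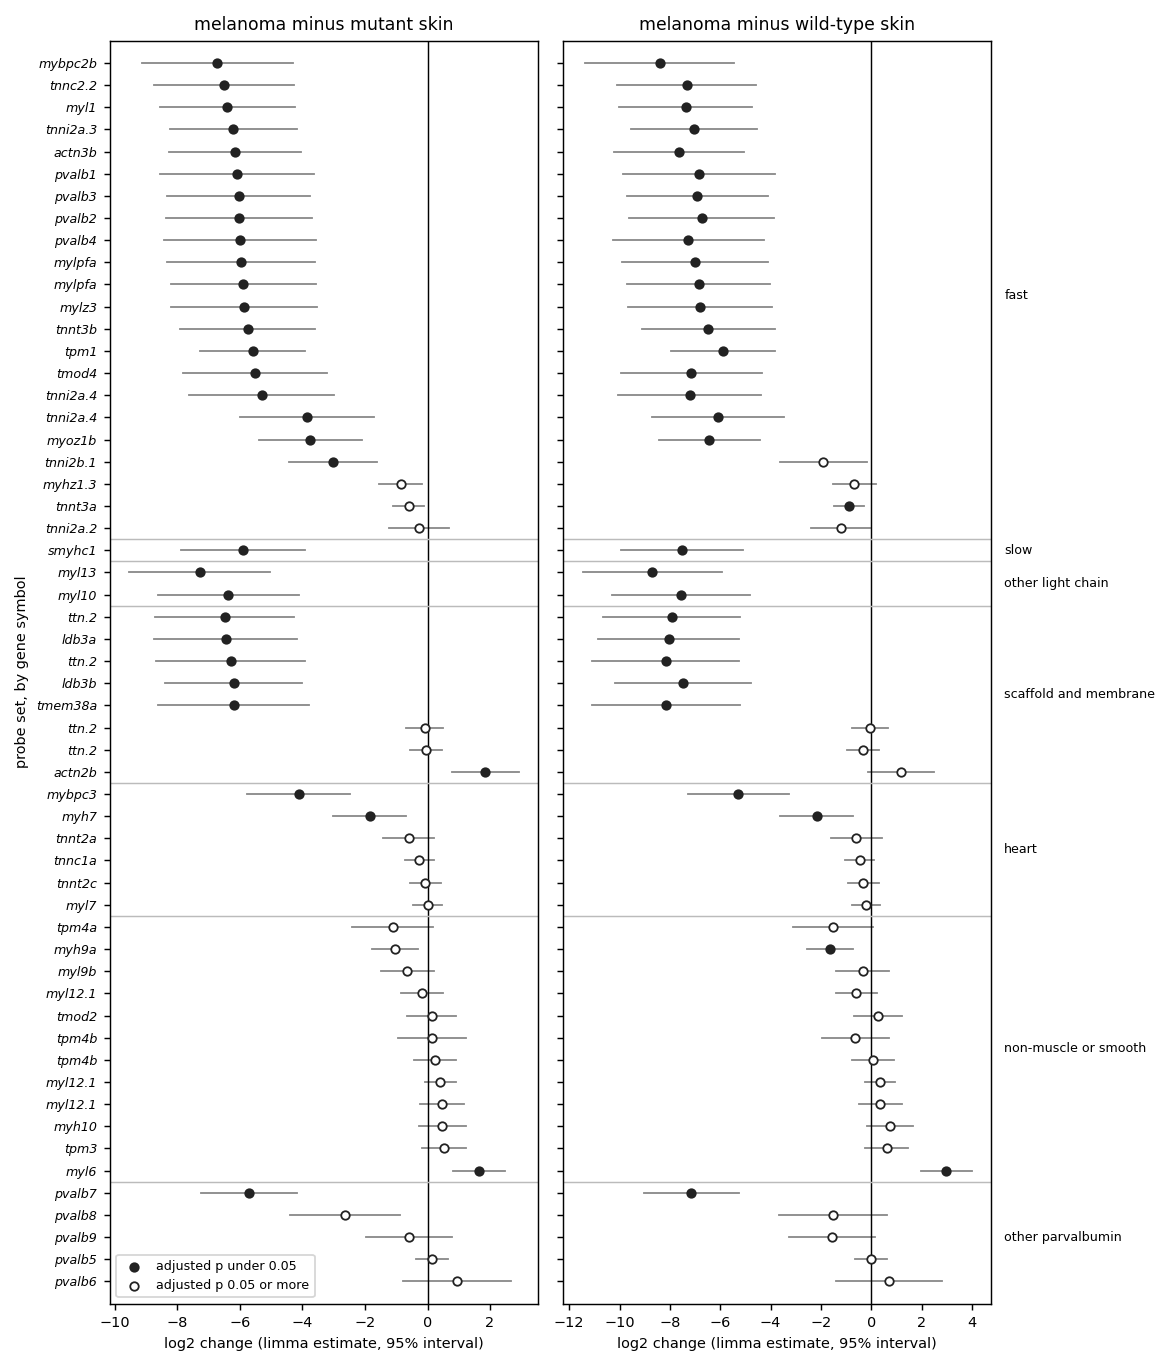
Log2 change of each sarcomere probe set (limma estimate with its 95% interval), melanoma minus mutant skin on the left and melanoma minus wild-type skin on the right, grouped by role, with filled points for adjusted p under 0.05. Most fast, slow, light-chain and scaffold probe sets lie far below 0 in both panels, with myhz1.3, tnnt3a, tnni2a.2, 2 ttn.2 probe sets and actn2b as exceptions. In the left panel the intervals of the heart and non-muscle probe sets include 0 apart from those of mybpc3, myh7, myh9a and myl6.

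The comparison of melanoma with wild-type skin asked how tumours differ from skin of fish without the transgene and the p53 mutation. The same classes of sarcomere genes were lower in melanoma as against mutant skin, with larger estimates for most. Of the 56 members 31 fell and 1 rose, against 6.36% and 7.46% of all probe sets, with a median log2 change of -3.73 (all probe sets -0.13). Both comparisons use the same 6 melanomas, and 29 probe sets fell in both. All melanomas lay below all wild-type skin arrays in 31 members, against 8.37% of all probe sets, and above them in 1, against 7.59%. With melanoma 1 to 5 alone, 32 members lay below and 3 above every wild-type skin array, against 13.7% and 15.6% of all probe sets. The test without melanoma 6 called 31 falls and 2 rises, against 8.1% and 11.9% of all probe sets.

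By role, 19 of 22 fast probe sets fell (median log2 change -6.85), as did 5 of 8 scaffold and membrane (-7.70), 2 of 6 heart (-0.53) and 1 of 12 non-muscle probe sets (0.16). The share of all probe sets that fell was 6.36%. The estimated falls were 416-fold for myl13 (log2 change -8.70 ± 1.3, adjusted p = 0.0012), 338-fold for mybpc2b (-8.40 ± 1.39, adjusted p = 0.00216) and 182-fold for smyhc1 (-7.51 ± 1.13, adjusted p = 0.00125). Floor values may make the estimate for myl13 too small. A titin probe set (ttn.2), ldb3a and tmem38a had log2 changes of -8.16, -8.05 and -8.15. The parvalbumin pvalb7 again had the smallest adjusted p (log2 change -7.15 ± 0.88, adjusted p = 0.000469). For these genes the 3 wild-type arrays were all high, whereas mutant skin 2 and 6 were not.

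The members that rose or fell in only 1 of the comparisons were few. The light chain myl6 rose against wild-type skin too (log2 change 2.98 ± 0.48, 7.88-fold, adjusted p = 0.00175), and all 6 melanomas lay above the wild-type arrays. For actn2b the change against wild-type skin was 1.17 ± 0.61 (adjusted p = 0.234), and without melanoma 6 it was 1.61 (adjusted p = 0.0228). The non-muscle myosin myh9a fell against wild-type skin (log2 change -1.64 ± 0.42, adjusted p = 0.0192), and so did tnnt3a (-0.90 ± 0.28, adjusted p = 0.044). The call held in 22 of 25 other settings for myh9a and in 9 of 24 for tnnt3a. With the title number as a replicate block it was lost for both (adjusted p = 0.0679 for myh9a and 0.144 for tnnt3a). Wild-type and mutant fish differ in genotype, so a shared number cannot mark the same fish in this comparison. The troponin I gene tnni2b.1 had a change of -1.90 ± 0.81 against wild-type skin (adjusted p = 0.14), beside -3.03 ± 0.66 against mutant skin (adjusted p = 0.0107). Whether the 2 comparisons differ for these genes was not tested.

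The comparison of mutant skin with wild-type skin asked whether mutant skin beside a tumour differs from wild-type flank skin. Genotype and nearness to a tumour differ together between these groups, and the body site may differ too. These cannot be told apart here. No member passed the test in limma: 0 fell and 0 rose of 56, with 2 at an unadjusted p under 0.05, and 0.168% and 0.0258% of all probe sets fell and rose. The median log2 change of the members was -0.74 (all probe sets -0.11). The largest was in myoz1b, with -0.16 (lowest), 2.34 (median) and 4.26 (highest) in mutant skin, against 3.55, 5.36 and 5.58 in wild-type skin (log2 change -2.69 ± 0.94, adjusted p = 0.469). For myl6 the mutant skin arrays all lay above the wild-type arrays (log2 change 1.34 ± 0.48, adjusted p = 0.481), the 1 member without overlap, against 1.5% of all probe sets that were higher without overlap.

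The lowered members were high or low together from array to array. The median over the 30 members that fell against mutant skin was -6.64, -5.43, -5.41, -3.98, -6.21 and 0.38 in melanoma 1 to 6, against 2.12, -0.69, 2.39, 3.16, 2.55 and 0.09 in mutant skin 1 to 6 and 2.47, 3.47 and 3.54 in wild-type skin. These members were chosen by the comparison of the first pair of groups, so the values describe the arrays. Melanoma 6 was the highest melanoma in 29 of the 30, and mutant skin 2 and 6 were the 2 lowest mutant skin arrays in all 30. In 28 of the 30, melanoma 1 to 5 lay below all 10 other arrays, an order that the choice of these members favours. Melanoma 6 lay above mutant skin 2 in 23 of the 30 and above mutant skin 6 in 20. These orders were not counted over all probe sets, so they are not shown to be particular to these members.

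Levels of marker lists of other cells also differed between arrays. Epidermal markers (18 of 19 listed genes measured, 23 probe sets) averaged -2.34 to -0.20 in melanoma (-0.83 in melanoma 6), against -1.04 in mutant skin 2, 0.10 in mutant skin 6, 1.79 to 2.46 in the other mutant skin arrays and 1.01 to 2.37 in wild-type skin. Of these probe sets 8 fell and 0 rose in melanoma against mutant skin, against 4.35% and 6.44% of all probe sets. Smooth-muscle markers averaged -1.37 to 0.08 in melanoma, against -1.39 to 2.06 in mutant skin and -0.10 to 1.38 in wild-type skin, and 0 of their 6 probe sets passed in limma (2 at an unadjusted p under 0.05). The 3 arrays of intermediate muscle level, melanoma 6 and mutant skin 2 and 6, had oocyte levels of 5.82, 5.94 and 6.48. Wild-type skin 1 had an oocyte level of 5.76. Its median over the lowered members was 2.47, against 3.47 and 3.54 in wild-type skin 2 and 3. The control probe sets for the ends of the actin transcript actc1b also differed. Their 5′ value minus the 3′ value was 2.33 to 4.44 in melanoma 1 to 5 and 0.41 in melanoma 6. In mutant skin it was -3.47 to 2.03 and in wild-type skin 0.29 to 3.24. Another 5′ control probe set, not used for this difference, read 1.32 and 1.84 in mutant skin 1 and 4. The probe set used read -0.68 and -1.55 there, so the low end in mutant skin depends on the probe set. The 3′ value lay at the floor in melanoma 1 and 5, so the difference there is a lower bound. The 3′ value was itself low in melanoma 1 to 5 (-6.64 to -3.55), and each probe set has its own reference. The difference is therefore no measure of RNA quality in these arrays. The part of RNA quality, of these other cells and of the oocyte transcripts in the results was not tested.

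**Figure D5:**
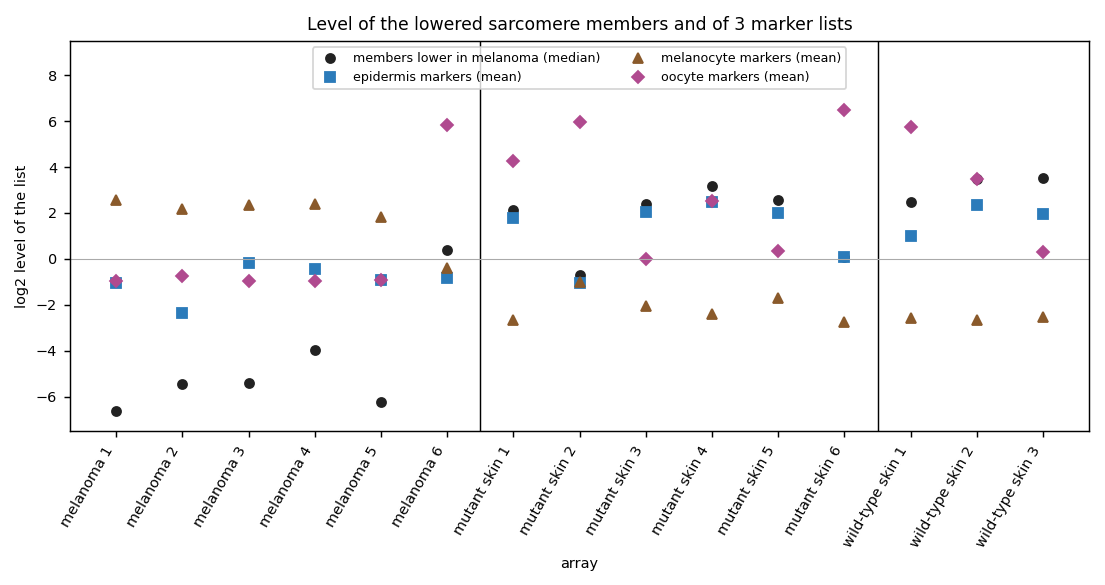
Median log2 value of the 30 sarcomere probe sets that fell in melanoma against mutant skin, and mean log2 level of 3 marker lists (epidermis, melanocyte, oocyte), in each of the 15 arrays. Melanoma 1 to 5 have low sarcomere medians (-6.64 to -3.98) with high melanocyte levels, while melanoma 6 and mutant skin 2 and 6 have sarcomere medians of -0.69 to 0.38 and oocyte levels above 5.

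Muscle genes outside the sarcomere families fell too. Of the 73 genes on a list of other skeletal muscle genes 31 were measured, with 34 probe sets. The list was chosen with earlier results of these data known, so its counts are not independent of them. Of these, 20 fell and 0 rose in melanoma against mutant skin (median log2 change -2.36), 22 fell and 0 rose against wild-type skin, and 0 passed between mutant and wild-type skin in limma (6 at an unadjusted p under 0.05). In the same 3 comparisons 4.35%, 6.36% and 0.168% of all probe sets fell, and 6.44%, 7.46% and 0.0258% rose. The largest falls were in nebulin (neb), the ruler of the thin filament (log2 change -6.04 ± 1.01, adjusted p = 0.00337), and in the calcium pump gene atp2a1 (-5.77). The glycolytic enzyme gene pgam2 (-5.60) and the muscle creatine kinases ckmb (-5.51) and ckma (-5.40), which buffer ATP, followed. The sarcomere-assembly factor gene klhl41b fell by 5.36 on the log2 scale, and the ubiquitin ligases trim55b and trim63b fell by 4.85 and 4.75. For nebulin, melanoma 1 to 5 lay between -6.27 and -4.64 and melanoma 6 at 0.52, against -0.81, 1.64 on average and 3.16 at the highest in mutant skin.

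Among 9 probe sets of regulators of the muscle lineage (MyoD and MEF2 families, picked out after values were seen), 2 fell against mutant skin and 4 against wild-type skin. The shares of all probe sets that fell were 4.35% and 6.36%. The differentiation factor myog fell by 2.12 on the log2 scale against mutant skin (adjusted p = 0.0417), and mef2ca, which acts with the MyoD family, by 2.48 (adjusted p = 0.0309). The determination factor myod1 had a change of -0.92 ± 0.42 against mutant skin (adjusted p = 0.189) and of -1.89 against wild-type skin (adjusted p = 0.0261). One of the 2 probe sets of myf6 had -2.28 against wild-type skin (adjusted p = 0.0185). The filamin gene flncb, a Z-disc and cytoskeletal cross-linker, had a change of 1.91 ± 0.78 (adjusted p = 0.137).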

How the data were processed

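The deposited values are log2 values per probe set, made by the authors with GCRMA per the submitters' processing notes, with no version given. The reference behind each probe set is not given in the sources used here, and the lowest value is a floor at -6.64. Of 15617 probe sets, 115 controls were left out and 15502 tested. Of these, 10795 carried 1 gene symbol, 135 several and 4572 none, and 10718 gene IDs matched the RefSeq gene table (GRCz12tu), all 56 members among them. Probe sets matching the symbol pattern but with several symbols (3) were not members.

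The 3 groups entered a joint linear model over the 15 arrays in limma (version 3.58.1, R version 4.3.3, functions lmFit and eBayes, no filter), tested two-sided with Benjamini-Hochberg adjustment over all 15502 probe sets at 0.05. It was first tested on simulated data. Errors of changes are SE and intervals 95%. Tables and figures were made with Python 3.11.15 and matplotlib 3.10.9. The number of arrays limits the precision.

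Members and lists were chosen with earlier results of these data known. Roles came from the lists, except that tnnc2.2 was counted as fast under its older name tnnc2, after values were seen. The gene myl13, which was on the fast list, and myl10, which was on no role list, were set apart after values were seen too. Named with values of each group were, within each role, up to 4 probe sets with the largest change of melanoma against mutant skin past the threshold, and every member with a change above 0, as well as 8 other muscle genes; pvalb2, tpm1, tmem38a, pvalb8, myh9a, myog, myod1, flncb and others outside this rule were added after values were seen. Samples were grouped by their titles. Alternatives were quantile normalization, centring of arrays, array weights, trend and robust eBayes, arrays of 2 groups only, the title number as a block, averaging probe sets by gene, 2 probe set filters, 2 settings for oocyte transcripts and leaving out each array in turn.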

Additional observations from a re-analysis of the deposited data

Results flagged for a closer look

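Within the groups of 6 arrays, the gap between the highest or lowest array and the nearest other was larger than Dixon's 95% limit in 25 of 112 member groups, or 22.3%. For independent groups of normally spread values chance gives about 1 in 20. The member groups share the same arrays and some hold several floor values, so that rate is no measure here. The share over all probe sets was not computed. The limit was not applied to the 3 wild-type arrays.

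Melanoma 6 was the far high array in 20 of the 25. Among the fast members its values were 0.59 for myl1, 0.40 for myoz1b, 0.88 for mylz3, 0.40 for actn3b, 0.56 for tnnc2.2 and -0.11 for tnni2a.3. The 2 probe sets of tnni2a.4 had 0.84 and 0.95, and those of mylpfa 0.92 and 1.21. The fast parvalbumins pvalb1, pvalb2, pvalb3 and pvalb4 had 1.25, 0.88, 0.33 and 0.43. Of the scaffold and membrane members, ldb3a had 0.25, tmem38a 0.40 and both lowered titin probe sets (ttn.2) 0.53. The remaining values of melanoma 6 were -0.53 for mybpc3 and -0.056 for pvalb9.

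Other arrays stood apart in 5 member groups. Melanoma 2 was the far high melanoma for the cardiac troponin T genes tnnt2a (0.45) and tnnt2c (0.40). Melanoma 4 was so for the parvalbumins pvalb8 (0.97) and pvalb5 (-0.36). Mutant skin 3 was the far high mutant skin array for pvalb6 (2.33).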

How the results depend on the processing

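No member changed sign past the threshold under any alternative run. The number of members lower in melanoma stayed at 28 to 36 against mutant skin and 28 to 40 against wild-type skin, and 28 to 30 of the 30 falls against mutant skin were kept in each run on probe sets. Leaving out each array in turn gave 28 to 32 falls and 1 to 2 rises against mutant skin, 28 to 32 falls and 1 to 2 rises against wild-type skin (2 without melanoma 6), and 0 and 0 between mutant and wild-type skin. Rises against mutant skin were 1 instead of 2 with the arrays of 2 groups only and with the oocyte covariate: actn2b had adjusted p = 0.0506 and 0.0749 there, and 0.0583 to 0.0742 without melanoma 1, 2, 3 or 5 or mutant skin 1. With array weights, whose estimation did not converge, 5 members rose against wild-type skin, and 3 fell and 2 rose between mutant and wild-type skin, where the share over all probe sets was 6.59% and 5.79% instead of 0.168% and 0.0258%. As genes, 28 of 48 fell and 2 rose against mutant skin, against 5.63% and 7.41% of all 8793 genes. Single members lost a call in 25 repeats against mutant skin (myh7, actn2b and a tnni2a.4 probe set) and in 28 against wild-type skin (tnnt3a, myh7 and myh9a). The cause was not tested. Over all probe sets, the shares that fell and rose were 11.4% and 16.3% against mutant skin and 24.9% and 30.2% against wild-type skin with array weights, and with the oocyte covariate 9.51% fell against mutant skin and 13.5% rose against wild-type skin. Against mutant skin 6.78% fell with the block, and leaving out each array in turn gave 2.61% to 7.08% lower; against wild-type skin without array 2 or 3 it was 2.74% or 2.21%.

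Whether title numbers pair the arrays is not settled: correlations of deviations of same-numbered melanomas and mutant skin were 0.09, -0.07, 0.45, 0.20, 0.39 and 0.70, not all over 0.1, and 3 of 6 melanomas correlated best with their own number, a hint from the data that the labels do not bear on. With the number as a replicate block, 31 members fell and 2 rose against mutant skin (6.78% and 9.04% of all probe sets). Against wild-type skin 29 fell and 1 rose (8.3% and 9.42%). A number shared with a wild-type array cannot mark the same fish, since the genotypes differ. Between mutant and wild-type skin 0 fell and 0 rose (0.123% and 0.0194%). Values at the floor limit how large a fall can be read.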

Other observations

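Probe sets left out of the members carried the same pattern where they read skeletal muscle genes. A probe set with the symbols tnni2a.4 and tnni2a.2 had a log2 change of -6.69 ± 1.36 in melanoma against mutant skin. A probe set shared by myh7l and myh7 had -0.27 (adjusted p = 0.59). The control probe set for the 3′ end of the actin transcript actc1b had -6.64, -5.92, -5.78, -3.55, -6.64 and 0.74 in melanoma 1 to 6, against 1.38, -1.16, 1.95, 1.92, 1.40 and 0.01 in mutant skin 1 to 6 and 1.48, 1.61 and 1.74 in wild-type skin. A control for the 5′ end had -2.24, -2.13, -2.71, -1.23, -2.21 and 1.15 in melanoma 1 to 6, against -0.68, -0.26, 3.97, -1.55, 3.22 and -0.69 in mutant skin 1 to 6 and 1.78, 4.46 and 4.97 in wild-type skin. Melanoma and mutant skin overlapped in the 3′ control only through melanoma 6, and in this 5′ control also without melanoma 6. Another 5′ control had -2.03, -2.18, -2.05, -0.64, -1.50 and 1.12 in melanoma 1 to 6. Its values were 1.32, -0.29, 3.13, 1.84, 2.74 and 0.03 in mutant skin 1 to 6, and 2.12, 3.24 and 3.32 in wild-type skin. In that control melanoma 1 to 5 lay below every mutant skin array, and melanoma 6 lay among them. Control probe sets were not tested.

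The members were among the most variable probe sets of the series. The median SD over the 15 arrays was 2.28 for members, against 0.79 for all probe sets, with 28 of the 56 among the 5% with the largest SD and 9 among the 25% with the smallest.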
